A study of Mus musculus with 12 samples.

Results

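H3K4me3 and cJun peaks were described around 9 genes that encode transcription factors of β cell identity, Pdx1, Nkx6-1, Nkx2-2, Neurod1, Insm1, Isl1, Pax6, Foxa2 and Mafa. Every peak within 50 kb of their annotated gene bodies was taken. The genes form a named set that was chosen with earlier results of these data known. They are 9 of 21951 protein-coding genes of the GENCODE vM21 annotation on the mouse build GRCm38. Their windows held 32 H3K4me3 peaks in DMSO and 30 under the JNK inhibitor, out of 19372 and 19032. The same windows held 30 of 4960 cJun peaks in DMSO and 10 of 1632 under the inhibitor.

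The peaks came from CUT&RUN, in which an antibody-tethered nuclease releases the DNA around its target, in Min6 cells. Min6 is a mouse insulinoma line, so every sample comes from 1 transformed line that stands in for β cells. For 48 hours the cultures were given either 20 µM of SP600125, which blocks the kinases (JNK) that phosphorylate cJun and is abbreviated JNKi, or DMSO alone. Each treatment was profiled with a cJun antibody, an H3K4me3 antibody (positive control) and IgG (negative control), in 2 biological replicates each, which makes 6 groups and 12 samples. The data analysed here were 4 peak lists, 1 per treatment for cJun and for H3K4me3, each joining peaks called in both replicates against IgG. The lists give the start and end of a peak in each replicate, which allowed widths to be compared between replicates. Per the labels each sample was sequenced to 30000000 paired-end reads, and the number of reads behind each peak cannot be read from the lists.

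The 9 factors form a network that directs endocrine precursors to become β cells and keeps mature β cells in that state. Several of them bind the insulin gene, and several bind each other's control regions. H3K4me3, the trimethylation of lysine 4 of histone H3, marks the start sites of active genes, and unusually wide stretches of it are known at genes that define the identity of a cell type. cJun is a subunit of AP-1, a dimeric factor that binds the letters TGACTCA or TGAGTCA and, in dimers with ATF or CREB proteins, the related CRE letters TGACGTCA.

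A few sequences are shown for the sites that the cJun results turn on. The first lines are windows of 121 bases centred on the summits of the 3 cJun peaks of highest rank in their own list near the 9 genes whose window held no untranslated region. All are from GRCm38 on the + strand, and capitals would mark AP-1 or CRE letters, which none of the 3 holds.
Foxa2, intron, DMSO, chr2:148046436-148046556: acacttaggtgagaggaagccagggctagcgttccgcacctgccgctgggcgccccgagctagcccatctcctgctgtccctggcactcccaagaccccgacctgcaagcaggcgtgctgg
Foxa2, distal, DMSO, chr2:147993289-147993409: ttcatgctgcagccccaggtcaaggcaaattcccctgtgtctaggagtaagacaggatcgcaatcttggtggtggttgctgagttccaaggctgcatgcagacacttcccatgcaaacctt
Nkx2-2, upstream, JNKi, chr2:147195335-147195455: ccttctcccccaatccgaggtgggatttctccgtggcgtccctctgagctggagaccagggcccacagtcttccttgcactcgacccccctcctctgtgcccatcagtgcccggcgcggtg
The next lines are the AP-1 and CRE matches found inside cJun peaks near the 9 genes, outside untranslated regions, with the match in capitals and 10 flanking bases on each side.
Nkx2-2, AP-1, DMSO peak, chr2:147182011-147182037: tgctgggctcTGACTCAtgaagtcacg
Pdx1, AP-1, DMSO peak, chr5:147268894-147268920: aagcaacttaTGAGTCAgcagcctggg
Pax6, CRE, DMSO peak, chr2:105668810-105668837: ctggccgccgTGACGTCAtccgcgcccg
Neurod1, CRE, JNKi peak, chr2:79448043-79448070: acctgtccacTGACGTCAttgtaacctt

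All 9 genes carried wide H3K4me3 domains. The domain of a gene was the widest H3K4me3 peak within 1 kb of one of its start sites, and 58.8% of protein-coding genes had one in DMSO and 58.2% in JNKi. The median domain of the 9 genes was 10939 bp in DMSO, against 2599 bp over all 12902 genes with a domain, and 12400 bp against 2665 bp over 12777 genes in JNKi. All 9 domains reached 5 kb in both treatments, against 5.14% of genes with a domain in DMSO and 5.31% in JNKi. The limit was close for Insm1, whose replicate widths were below 5 kb in 1 of 2 DMSO and in both JNKi replicates. In both treatments 7 of the 9 reached 10 kb, against 0.233% of genes in DMSO, which is 30 genes, and 0.282% in JNKi, which is 36 genes. These shares are set side by side without a test, since the genes were chosen with earlier results of these data known.

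**Figure D1:**
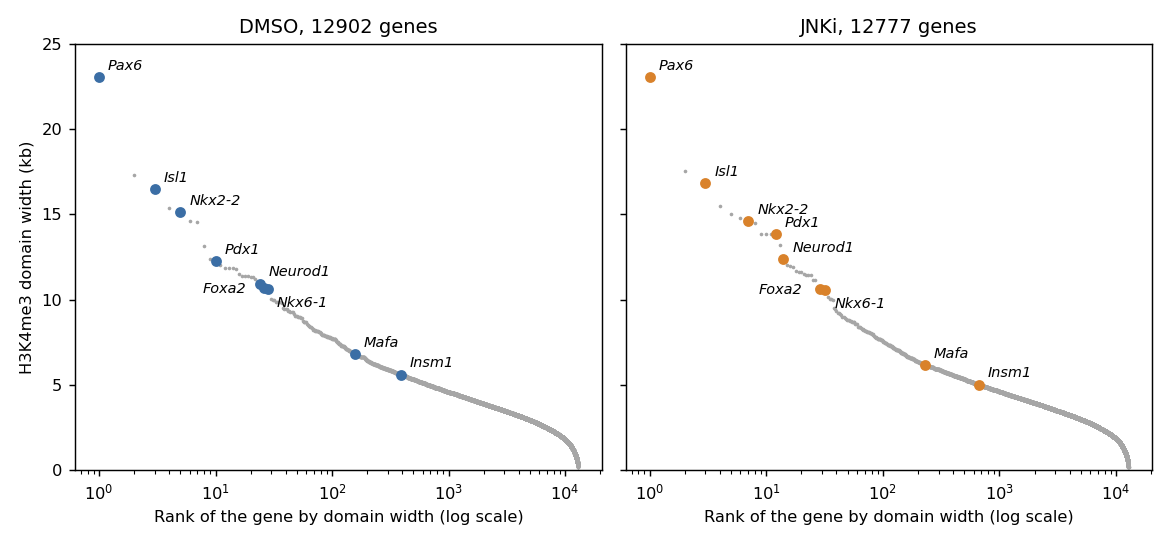
H3K4me3 domain width in kb against the rank of the gene by width (log scale), in DMSO (left) and JNKi (right). Grey points are all protein-coding genes with a domain and colored points the 9 factors, with Pax6 at rank 1 in both lists and Insm1 lowest of the 9.

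Pax6, a paired homeodomain factor that activates hormone genes in all islet endocrine cells, had the widest domain of any gene in both lists. In DMSO it spanned chr2:105665114-105688177, and its width was 23064 bp in the first replicate and 22924 bp in the second. The JNKi replicates measured 23050 bp and 22579 bp. The next widest domain, at Ero1lb, an endoplasmic reticulum oxidase gene, had 17317 bp in DMSO and 17545 bp in JNKi.

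Isl1, a LIM homeodomain factor of early and mature endocrine cells, ranked 3 in both treatments. Its domain at chr13:116296243-116312721 was 16479 bp and 16331 bp wide in the DMSO replicates. The JNKi replicates gave 16839 bp and 16125 bp, a range that encloses the DMSO values.

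Nkx2-2, a homeodomain factor that sets endocrine fate and represses genes of other islet cells, ranked 5 in DMSO and 7 in JNKi. Its domain at chr2:147180735-147195886 was 15152 bp and 14953 bp in DMSO. Under JNKi both replicates were narrower, at 14604 bp and 14565 bp.

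Pdx1, which is required for the pancreas to form and activates insulin transcription in the adult, ranked 10 in DMSO and 12 in JNKi. In DMSO its domain spanned chr5:147268085-147280330, with 12246 bp and 12223 bp in the replicates. JNKi widths were higher in both replicates, at 13850 bp and 12587 bp, and differed from each other by more than the lower of them differed from DMSO.

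Neurod1, a basic helix-loop-helix factor that acts downstream of the endocrine precursor gene Neurog3, ranked 24 in DMSO and 14 in JNKi. Its domain at chr2:79450274-79461212 was 10871 bp and 10840 bp in DMSO. The JNKi replicates measured 12400 bp and 11795 bp, both above DMSO.

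Foxa2, a forkhead factor that opens chromatin in the pancreas and liver, ranked 26 in DMSO and 29 in JNKi. The domain at chr2:148036985-148047682 measured 10591 bp and 10674 bp in DMSO. In JNKi it measured 10443 bp and 10300 bp, slightly narrower in both replicates.

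Nkx6-1, a homeodomain factor restricted to β cells among adult islet cells, ranked 28 in DMSO and 32 in JNKi. Its DMSO replicates at chr5:101655406-101666024 were 10619 bp and 10454 bp wide. The JNKi replicates, at 10518 bp and 10096 bp, overlapped that range.

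Mafa, a basic leucine zipper activator of insulin in mature β cells, and Insm1, a zinc finger factor of endocrine differentiation, had the narrowest domains of the 9. Mafa ranked 156 in DMSO and 230 in JNKi, with 6034 bp and 6818 bp in DMSO at chr15:75741957-75748774 and 6101 bp and 6142 bp in JNKi. Insm1 ranked 389 and 664, with 4971 bp and 5606 bp in DMSO at chr2:146221140-146226745 and 4958 bp and 4836 bp in JNKi. Even these stood at width percentiles of 98.8 and 97.0 in DMSO and 98.2 and 94.8 in JNKi.

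Neighbours in this order did not all differ. Foxa2 and Nkx6-1 had overlapping replicate widths in DMSO and in JNKi, so that their order was not separated from the replicate spread. Every other pair of neighbours had separate replicate ranges in both treatments. A limit of 0.05 on the irreproducible discovery rate (IDR), a measure of how far a peak fails to replicate, would leave out 2 of the 9 domains in DMSO (Pdx1 and Foxa2), against 29.6% of H3K4me3 peaks of 5 kb or more. In JNKi it would leave out 3 of 9 (Pdx1, Neurod1 and Pax6), against 33.0%. Both shares were near the background.

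**Figure D2:**
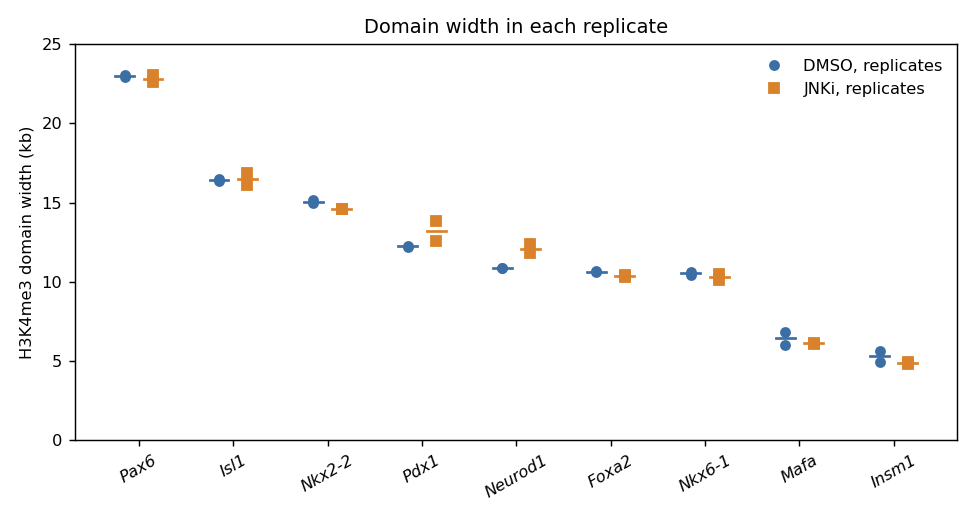
H3K4me3 domain width in kb in each of 2 replicates in DMSO (circles) and JNKi (squares), with a line at the mean, for the 9 genes ordered by DMSO width. The difference between Pax6 and Insm1 is far larger than any shift between treatments.

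The domains reached across the genes and not only their start sites. For 8 of 9 genes the domain extended further downstream than upstream of its most upstream start site in the basic annotation, by 9984 bp against 713 bp at Foxa2 and 19277 bp against 3786 bp at Pax6 in DMSO. At Nkx2-2 it reached 9482 bp upstream of that start site and 5669 bp downstream. This depends on the start used, since from the 5′ end of the annotated gene body the Nkx2-2 domain ran 1643 bp upstream and 13508 bp downstream. A larger extent downstream was also common in general, at 83.5% of all genes with a domain in DMSO.

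In both treatments the whole annotated gene lay inside the domain for 7 of the 9. The same was true of 2.07% of all genes with a domain in DMSO and 2.11% in JNKi, and of 9.80% and 9.57% of genes whose domain reached 5 kb. The 7 genes are 2739 to 11409 bp long and the other two, Nkx2-2 and Pax6, 16698 bp and 28465 bp. These shares are not matched for gene length, whose part was not tested. Past the 3′ end of the gene the DMSO domain went on for 5892 bp at Foxa2, 4482 bp at Pdx1 and 3533 bp at Mafa, and for 1725 bp at Insm1.

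**Figure D3:**
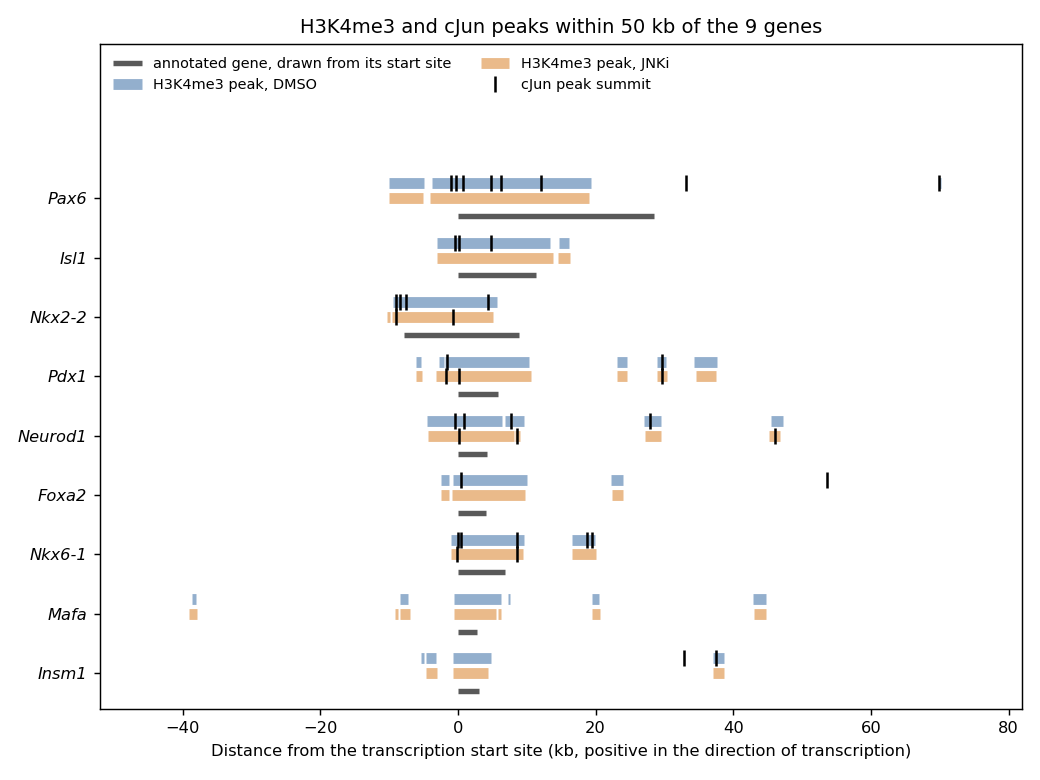
H3K4me3 peaks (bars, DMSO above JNKi) and cJun summits (black ticks on the row of their treatment) around the 9 genes, by distance from the start site in kb, with the annotated gene in grey. The H3K4me3 rows of the treatments look alike, while 30 cJun ticks lie on the DMSO rows and 10 on the JNKi rows.

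Several domains hold start sites of non-coding RNAs beside the member's own, and H3K4me3 from these cannot be told apart. Plut and Gm27033 start in or near the Pdx1 domain, Nkx2-2os and 6430503K07Rik at Nkx2-2, Gm26755 at Neurod1 and Pax6os1 at Pax6. No domain was shared with another protein-coding gene.

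The remaining H3K4me3 peaks in the windows, 23 in DMSO and 21 in JNKi, were narrow, with medians of 1401 bp and 1461 bp. The widest lay beside the Pax6 domain at the start of Paupar, a non-coding RNA, at 5067 bp in DMSO and 4982 bp in JNKi. Next to Pdx1 the start of Cdx2, an intestinal homeodomain gene, carried 3336 bp in DMSO and 3033 bp in JNKi. Downstream of Nkx6-1 a peak of 3408 bp in DMSO and 3625 bp in JNKi began 9648 bp past the gene and touched no start site.

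Of the 32 DMSO peaks 29 were overlapped by a JNKi peak, against 93.4% of all H3K4me3 peaks. Of the 30 JNKi peaks 28 were overlapped by a DMSO peak, against 94.3%. The 5 peaks without a partner lay in the windows of Insm1, Pax6, Mafa and Nkx2-2, and all 9 domains had one.

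JNK inhibition was then compared with DMSO on the log2 width of each replicate, in a limma fit over 11387 domains present in both treatments with 2 replicates each. None of the 9 domains passed an adjusted p of 0.05 (limma moderated test, Benjamini-Hochberg adjustment), and none had an unadjusted p under 0.05 in this fit, against 921 (8.09%) of all domains in either direction. After adjustment, among all domains 66 (0.580%) were wider and 40 (0.351%) narrower under JNKi.

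Neurod1 had the largest estimate, a log2 fold of 0.16 (SE 0.06, 95% confidence interval −0.01 to 0.32, limma adjusted p = 0.642). Pdx1 followed with a log2 fold of 0.11 (interval −0.08 to 0.30, limma adjusted p = 0.846), which was 0.04 without the first JNKi replicate column of the list and 0.18 without the second. Insm1 had the lowest estimate with all replicates, −0.11 (interval −0.32 to 0.11, limma adjusted p = 0.879). It was −0.20 without the first DMSO replicate column and −0.02 without the second, where Nkx2-2 at −0.06 was lower, so its place among the 9 rests on 1 DMSO replicate. The other 6 estimates lay between −0.07 at Mafa and 0.01 at Isl1, with limma adjusted p from 0.943 to 0.992. When the variance was instead fitted with a trend and robustly, 2 of the 9 had an unadjusted p under 0.05 and intervals without 0, against 948 (8.33%) of all domains at that p, and none of the 9 passed after adjustment. These were Neurod1 (interval 0.08 to 0.23, limma adjusted p = 0.0775) and Pdx1 (interval 0.01 to 0.21, limma adjusted p = 0.550).

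The intervals bound what could have been missed. Over the 9 genes they reached from 79.9% of the DMSO width, the lower bound at Insm1, to 125% of it, the upper bound at Neurod1. For Pax6 the interval was 89.3% to 110% of the DMSO width. At Isl1 it was 90.0% to 112%, while joining peaks less than 1 kb apart gave 117%.

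**Figure D4:**
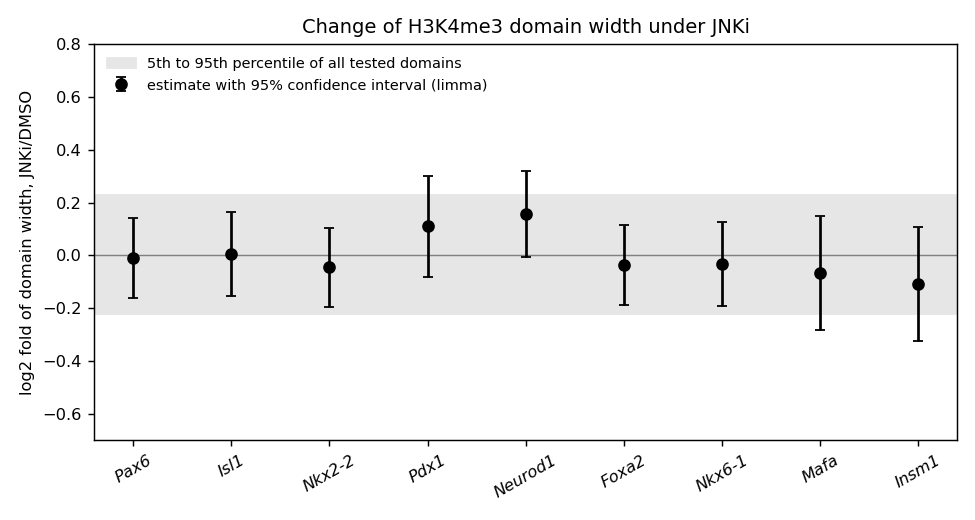
The log2 fold of H3K4me3 domain width in JNKi over DMSO for the 9 genes, with 95% confidence intervals from limma (2 replicates per treatment), and in grey the 5th to 95th percentile of all tested domains, −0.22 to 0.23. In this fit all 9 intervals include 0 and all 9 estimates lie inside the grey band.

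Replicate widths did not overlap between the treatments at 5 of the 9. They were wider under JNKi at Pdx1 and Neurod1, as at 20.6% of all tested domains, and narrower at Nkx2-2, Insm1 and Foxa2, as at 15.3%.

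The larger values at Pdx1 and Neurod1 went with peaks that were separate in DMSO and lay inside the domain in JNKi. Upstream of Pdx1, DMSO had a separate peak of 736 bp at chr5:147267146-147267881, which the JNKi domain took in. Downstream of Neurod1, the JNKi domain took in a DMSO peak of 920 bp at chr2:79449048-79449967. When peaks less than 1 kb apart were joined, the JNKi width was 105% of the DMSO width at Pdx1 and 94.6% at Neurod1, so that the direction at Neurod1 turned. The direction also turned at Nkx2-2, to 101% of the DMSO width. In the same way Mafa came to 83.1% and Isl1 to 117%.

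cJun peaks were found near 8 of the 9 genes in DMSO and near 4 of 9 in JNKi. Over all protein-coding genes a cJun peak lay within 50 kb of 28.1% in DMSO and 12.1% in JNKi. Wide domains in general had cJun peaks nearby, since 96.7% of the 30 genes with a DMSO domain of 10 kb or more had one in DMSO and 53.3% in JNKi. The counts for the 9 factors, which supply 7 of those 30 genes, are read against these shares.

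Pax6 had the most cJun peaks, with 8 in DMSO and 0 in JNKi. Nkx6-1 had 5 and 2, Nkx2-2 had 4 and 2, Neurod1 had 4 and 3, and Isl1 had 3 and 0. Pdx1, with 2 in DMSO and 3 in JNKi, was the only one of the 9 with more peaks in JNKi, but all 3 overlapped one of the 2 DMSO peaks, since the wide DMSO peak of 2779 bp overlapped a pair of JNKi peaks. Insm1 and Foxa2 had 2 each in DMSO and 0 in JNKi, and Mafa had 0 in both. Over all genes, 1.81% had at least 4 cJun peaks in DMSO, as 4 of the 9 did. Each of these 4 had a domain of 10 kb or more. The share over all genes is not matched for domain width, whose part was not tested.

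These counts moved with the length of the lists. The JNKi list holds 1632 peaks and the DMSO list 4960, and the cause of that difference was not tested. With the DMSO list shortened to the 1632 peaks of highest −log10 p, 6 were left near the 9 genes, at Nkx6-1, Nkx2-2, Isl1 and Foxa2, which is fewer than the 10 of the JNKi list. The direction of the comparison between treatments therefore depended on list length. With 1 cJun list per treatment the counts have no replicate error and no test.

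**Figure D5:**
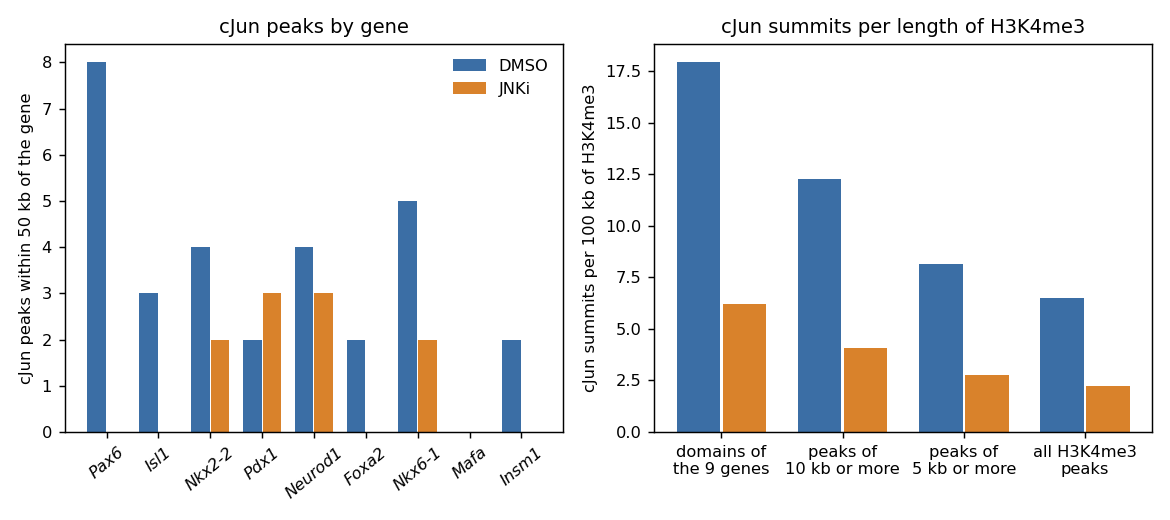
Left, the number of cJun peaks within 50 kb of each gene in the DMSO and JNKi lists. Right, cJun summits per 100 kb of H3K4me3 in the domains of the 9 genes, in H3K4me3 peaks of 10 kb or more, of 5 kb or more and in all H3K4me3 peaks, where the 9 domains are the highest in each treatment, at 17.9 and 6.19.

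Most of these cJun peaks lay on H3K4me3. In DMSO 27 of 30 overlapped an H3K4me3 peak of the same treatment, against 53.4% of all cJun peaks, and in JNKi 10 of 10 did, against 55.5%. The member's own domain held 20 of the 30 in DMSO and 7 of the 10 in JNKi. Per length, the 9 domains held 17.9 cJun summits per 100 kb in DMSO (20 summits in 112 kb) and 6.19 in JNKi. H3K4me3 peaks of 10 kb or more, which include 7 of the 9, held 12.3 and 4.08, and all H3K4me3 peaks held 6.51 and 2.24. IgG levels at these sites were not analysed here, and the part of background in wide open regions was not tested.

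At Pax6, 6 of the 8 DMSO peaks lay in the domain, from the promoter to an intronic summit 12107 bp downstream of the start site. At Nkx2-2 all 4 DMSO peaks did, 3 of them near the upstream edge of the domain. At Isl1 all 3 lay in the domain, and 1 of them, with its summit 150 bp downstream of the start site, had an IDR of 0.0481. A low IDR marks a peak that ranks high in both replicates, while peaks that are weak in both carry a high IDR.

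Few of the peaks were reproducible by that measure, as in the whole lists. In DMSO 3 of the 30 had an IDR of at most 0.05, against 8.97% of the list, and in JNKi 1 of 10 did, against 15.6%. Besides the Isl1 peak these were both DMSO peaks of Foxa2 and the upstream JNKi peak of Nkx2-2. The intronic Foxa2 peak, with its summit 473 bp downstream of the start site, had an IDR of 0.00955 and replicate −log10 p of 19.2 and 17.2. The distal Foxa2 peak began 49129 bp past the 3′ end of the gene, on no H3K4me3 peak, with an IDR of 0.0105 and a −log10 p of 17.8 in the lower replicate. Neither was overlapped by a JNKi peak.

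The upstream Nkx2-2 peak was present in both lists. Its replicate −log10 p was 10.5 and 17.3 in DMSO, with an IDR of 0.104. In JNKi it was 13.5 and 14.9, with an IDR of 0.0200. The levels are not compared between the lists, which were called separately.

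In all, 6 of the 30 DMSO peaks were overlapped by a JNKi peak, against 23.6% of the list, and 7 of the 10 JNKi peaks by a DMSO peak, against 72.0%. Both shares were near the background. The shared sites lay at Pdx1 (the upstream domain edge and a peak 23267 bp downstream of the gene), at Nkx6-1 (the start site and a site past the 3′ end), upstream of Nkx2-2 and at the start of Neurod1. The JNKi peaks without a DMSO partner were 1 inside the Nkx2-2 gene body, with its summit at −682 bp from the basic start site (upstream of it), and a pair downstream of Neurod1.

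AP-1 letters, TGACTCA or TGAGTCA on either strand, were found near few of these summits. They lay within 100 bp of 1 of 30 DMSO summits, against 10% of all DMSO cJun peaks, and of 0 of 10 JNKi summits, against 12.1%. The 1 match is the Nkx2-2 site shown above, in an intron, centred 28 bp from the summit. Over whole peaks a second match appeared upstream of Pdx1, 483 bp from the summit, which makes 2 of 30 in DMSO, against 32.6% of the list, and 0 of 10 in JNKi, against 35.0%. Windows of 100 bp on each side, shifted by 2 kb from all cJun summits, held the letters in 3.69% in DMSO and 3.80% in JNKi. At these counts a few peaks decide the share. The shares of the lists are not matched for overlap with H3K4me3, whose part was not tested.

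CRE letters, TGACGTCA, lay within 100 bp of 1 of 30 DMSO summits, against 0.806% of the list, and of 0 of 10 JNKi summits, against 1.78%. That match was in the downstream Pax6 peak inside Elp4, whose sequence is not shown. In whole peaks, 2 more appeared, the Pax6 promoter site shown above, 176 bp from a DMSO summit, and the Neurod1 site, 129 bp from a JNKi summit. Whole peaks thus held CRE letters in 2 of 30 in DMSO, against 3.10%, and in 1 of 10 in JNKi, against 5.21%. At these counts, a difference of 1 or 2 peaks decides the share.

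The base composition of the domains was not unusual. The observed to expected CpG ratio of the 9 domains had a median of 0.528, from 0.371 at Pdx1 to 0.820 at Insm1. The median was 0.556 over domains of 5 kb or more and 0.575 over all gene domains.

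A list of 14 other islet regulators gave the wider context, with a domain at 11 in DMSO and 10 in JNKi. Their median width was 4602 bp in DMSO, and 4 reached 5 kb. The widest were Tshz1, a zinc finger factor, with 11857 bp, and St18, a Myt1-family factor, with 9155 bp. Another protein-coding gene had the same width and rank as Tshz1 in both treatments, so that domain may not belong to Tshz1 alone. Neurog3, the transient gene of endocrine precursors, Pax4 and Hnf4a had no domain in either list. A cJun peak lay near 4 of the 14 in DMSO and 0 in JNKi.

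The labelled cell type was checked against markers. Of 8 β cell markers 7 had a domain in both treatments, with Ins1 as the exception. A domain was found at 3 of 7 markers of other islet endocrine cells, 1 of 6 acinar and 2 of 5 duct markers in both treatments. Of 6 markers of blood, endothelial and mesenchymal cells, 1 had a domain in DMSO and 0 in JNKi.

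The genes nearest to Pax6 in their 4 replicate widths, by Euclidean distance on the log2 scale, were Ero1lb (0.815), Isl1 (0.957), Cdkn2c (1.15), Nkx2-2 (1.26) and Cdkn1b (1.29). The cell cycle inhibitor genes Cdkn2c and Cdkn1b had DMSO domains of 15397 bp and 14642 bp. The 9 genes were spread unevenly over the genome, with 5 on chromosome 2, where Insm1, Nkx2-2 and Foxa2 lie within 1.83 Mb.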

How the data were processed

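Peak lists of CUT&RUN in Min6 cells were grouped by their labels. Per the labels and the study's methods, 550000 cells entered each reaction, reads (150 bp, paired) were trimmed with Trimmomatic and aligned to GRCm38 with Bowtie2 2.4.2, filtered with SAMtools 1.16, and peaks were called with MACS2 2.2.7.1 against IgG. The authors then paired replicates with IDR. The deposited lists give −log10 p-values per replicate, a merged −log10 p, −log10 IDR and a score scaled from IDR, with peak positions. The merged −log10 p was the lower replicate value in 100% of peaks. Its lowest value was 3.01 in each list, whereas the methods name default settings, which limit the q-value. These do not match, the setting used is not known, and all counts include peaks down to this value. All deposited peaks were used, without an IDR limit. The replicate columns carry no replicate number.

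A gene's domain was the widest H3K4me3 peak within 1 kb of a GENCODE vM21 basic start site. Replicate widths were compared as log2 values with limma 3.58.1 in R 4.3.3 over 11387 domains, each distinct pair of peaks once, without covariates. cJun peaks within 50 kb of the gene body were counted, and AP-1 and CRE letters searched within 100 bp of the merged summit on both strands. Overlap needed 1 bp. Python 3.11.15, pandas 2.3.3, pysam 0.24.0 and matplotlib 3.10.9 were used. Steps were tested on simulated data. Named genes were the 9 members, the widest, the narrowest and those without a domain of 14 other regulators (1 of these is not reported here), the 5 nearest profiles and neighbours in the windows. Members and lists were chosen with earlier results of these data known. Alternatives covered IDR, joining of peaks, start-site distance, windows, list length, overlap and motif definitions and leaving out replicates. Neither IgG libraries nor reads were used here.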

Additional observations from a re-analysis of the deposited data

How the results depend on the processing

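Of 186 alternative values over 28 results, 130 stayed on the same side or within the spread, 49 moved and 7 turned sign. The members' median domain width in DMSO, 10939 bp, was 13185 bp when peaks less than 1 kb apart were joined and 14000 bp at 3 kb, and 10840 to 10871 bp with 1 replicate left out. In JNKi, 12400 bp became 13245 bp with either joining, 10595 bp at an IDR of at most 0.05 or 0.01, which kept 6 of the 9 genes, and 11795 to 12400 bp with 1 replicate left out. The median width percentile in DMSO was 99.9 under both IDR limits, 1 kb joining and ranking among all peaks, 99.8 when the peak had to touch the start site or 1 replicate was left out, 99.7 at 3 kb joining and 81.0 when genes were ranked by −log10 p. In JNKi it was 99.9 in all of these except 99.5 at 3 kb joining and 91.3 by −log10 p.

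Domains called wider and narrower by limma (66 and 40, 106 in all) were 90 and 75 (165) after centring, 130 and 74 (204) with trend and robust variance, 65 and 34 (99) at an IDR of at most 0.05, and 0 and 0 when any 1 replicate was left out, which leaves the lone sample assumed to vary like the other treatment. No member was called in any of these, with 5 of the 9 tested under the IDR limit. Joining merged peaks less than 1 kb apart before taking the fold, an alternative chosen after seeing the data and without a test, turned the direction at Neurod1 (−0.080 on the log2 scale, 94.6% of the DMSO width) and Nkx2-2 (0.021, 101%). The other 5 values that turned sign were at Isl1 (0.01 on the log2 scale), −0.020 after centring and −0.025 to 0.038 with 1 replicate left out, Pax6 (−0.01) at −0.026 to 0.0035 and Mafa (−0.07) at −0.16 to 0.021 with 1 replicate left out.

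Members with a cJun peak in DMSO, 8, fell to 2 at an IDR of at most 0.05, 1 at 0.01 and 4 at equal list length, and their peaks from 30 to 3, 1 and 6. In JNKi, 4 members with 10 peaks became 1 with 1 at 0.05 and 0 with 0 at 0.01. Windows of 10, 25 and 100 kb stayed within 1.5 times of these counts. Peaks overlapped between treatments, 6 in DMSO and 7 in JNKi, were 3 and 3 at 50% reciprocal overlap. AP-1 matches in DMSO were 2 over whole peaks against 1. No paired analysis was possible because the replicate columns carry no replicate numbers, so the planned fit with a replicate block was not run.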

Other observations

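The −log10 p of some of the widest domains was low. At Pdx1 the merged DMSO domain had a −log10 p of 3.01, rank 19370 of 19372, with replicate values of 3.01 and 10.5, while in JNKi the replicates were at 734 and 8.29. At Foxa2 the DMSO replicates were at 429 and 7.21, and at Neurod1 the JNKi replicates at 454 and 5.39. The IDR of these 4 domains was 0.306 in DMSO and 0.282 in JNKi, the highest value of each H3K4me3 list, and at Pax6 it was 0.0848 in JNKi. Among H3K4me3 peaks of 5 kb or more the replicate −log10 p differed by at least 10-fold in 14.3% (81 of 565) in DMSO and 15.8% (92 of 584) in JNKi, against 1.74% and 1.64% of narrower peaks. The share with an IDR above 0.05 differed less between these classes, at 29.6% of peaks of 5 kb or more against 26.9% of narrower peaks in DMSO, and 33.0% against 24.1% in JNKi. The cause was not tested.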
